A study of Mus musculus with 6 samples.

Results

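The genes described here are 9 genes by which projection neurons of the striatum are recognised, namely Drd1, Drd2, Adora2a, Ppp1r1b, Pde10a, Rgs9, Penk, Foxp1 and Syndig1l. They were chosen by name, and chosen from earlier values of these same arrays in which striatal markers stood out in single mice, so their levels are given as a description with no test. Of the 9 genes, 8 were measured, with 23 of the 45037 probe sets other than controls and as 8 of 18193 genes. Adora2a, the adenosine receptor of the indirect pathway, had 0 probe sets annotated to it alone and was not analysed here. No filter on low values was used, and the brightest probe set on average across the 6 arrays stands for each gene.

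RNA labelled as hippocampus was hybridized to 6 Affymetrix mouse arrays, 1 per mouse. The duplication group was 3 mice of genotype Dp(11)17/+, carrying on 1 homologue a duplicated stretch of chromosome 11 and studied as a model of Potocki-Lupski syndrome, and the wild-type group was 3 mice of genotype +/+. All 6 were labelled male, of the strain C57BL/6-Tyr c-Brd, and 11 to 14 weeks of age. The tissue preparation text of the labels lists whole brain and 5 other organs and does not name the hippocampus, and the labelling text speaks of pools of RNA although each array is labelled with 1 individual.

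Projection neurons of the striatum are inhibitory, receive dopamine, and fall into a direct and an indirect pathway. Direct-pathway neurons carry the dopamine receptor D1, which raises cyclic AMP, and make the peptides substance P and dynorphin. Indirect-pathway neurons carry the dopamine receptor D2, which lowers cyclic AMP, together with the adenosine receptor Adora2a, and make enkephalin. Both share a signalling apparatus around cyclic AMP, including DARPP-32 and a striatal phosphodiesterase, and the genes have weaker or scattered expression elsewhere in the forebrain, including some hippocampal cells.

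For 5 of the 9 genes the RefSeq table of promoters held a window, 9 windows in all on the build GRCm38.p6. The 250 bases before a RefSeq start are shown for 3 genes that differed in their pattern across mice, Drd1, which was also high in 1 wild-type mouse, and Drd2 and Rgs9, which were not. Capitals mark GGGCGG or its reverse complement, the core of a binding site for Sp1, a factor of GC-rich promoters. The Drd1 window lies at chr13:54055659-54055908 on the minus strand, the Drd2 window at chr9:49340153-49340402 on the plus strand, and the Rgs9 window at chr11:109298182-109298431 on the minus strand, each written 5′ to 3′ in the direction of the gene.
Drd1: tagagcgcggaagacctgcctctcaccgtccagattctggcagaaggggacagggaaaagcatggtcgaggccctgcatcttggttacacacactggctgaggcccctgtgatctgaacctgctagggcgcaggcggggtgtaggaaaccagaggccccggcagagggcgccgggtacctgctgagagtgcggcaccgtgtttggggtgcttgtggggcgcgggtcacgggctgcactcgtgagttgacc
Drd2: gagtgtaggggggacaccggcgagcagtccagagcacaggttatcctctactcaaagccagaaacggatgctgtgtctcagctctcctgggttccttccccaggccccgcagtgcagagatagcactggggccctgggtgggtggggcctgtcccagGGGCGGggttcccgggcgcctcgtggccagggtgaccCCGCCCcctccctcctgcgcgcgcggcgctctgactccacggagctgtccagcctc
Rgs9: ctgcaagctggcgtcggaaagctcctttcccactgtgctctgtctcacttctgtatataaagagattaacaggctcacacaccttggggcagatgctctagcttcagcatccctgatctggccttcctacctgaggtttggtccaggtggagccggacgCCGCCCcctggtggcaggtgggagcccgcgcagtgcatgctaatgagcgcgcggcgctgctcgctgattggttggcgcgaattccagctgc
The Sp1 letters were present 2 times in the Drd2 window, 1 time in the Rgs9 window and 0 times in this Drd1 window, while the second Drd1 window held them 1 time. Of the 9 windows of the 5 genes, 6 held them on either strand, as did 32.7% of the 32851 windows of the table cut to the same length. The cyclic AMP response element TGACGTCA was in 0 of the 9 windows and in 1.55% of all windows. The shorter TGACG, which also lies inside it, was in 1 of the 9 (Foxp1) and in 17.8% of all. The forkhead letters TGTTTAC were in 0 of the 9 and in 3.17% of all, and the Meis letters TGACAG in 1 of the 9 (Foxp1) and in 15.9% of all. Both strands were searched each time. These are matches of letters and not binding sites.

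Before the values of the 8 genes, 3 features of the arrays bear on them. The array of duplication mouse 1 did not match its label as male, with Xist at 9.13 on the log2 scale (3.06 to 3.69 in the other 5 mice). The genes Eif2s3y and Kdm5d of the Y chromosome were at 2.48 and 2.47 there, and at 5.41 to 6.01 and 4.70 to 5.06 elsewhere. Several markers of the labelled tissue were low in duplication mouse 3. Among 8 markers of dentate granule cells, Dsp and Tdo2 had log2 values of 3.33 and 2.78 there, under that array's median of 3.76, where the lowest values of the other 5 mice were 6.06 and 3.91, while Pdzd2 and Calb1 of the same list were 1.05 and 0.15 above the wild-type mean. The 3' minus 5' difference of the actin controls was 1.69, 1.47 and 1.74 in duplication mice 1, 2 and 3 and 1.45 to 1.63 in wild-type mice. That of the Gapdh controls was 0.47, 0.33 and 0.44 in duplication mice and 0.57, 0.37 and 0.38 in wild-type mice 1, 2 and 3. Array medians lay between 3.74 and 3.79, and precision is limited by having 3 arrays in a group. Nothing in the labels ties the 3 mice of a group to litters or days.

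The 8 genes were high together in duplication mouse 3, less so in duplication mouse 1, and not in duplication mouse 2. Averaged over the 8 genes, the log2 level lay 2.10 above the wild-type mean in duplication mouse 3, 1.18 above it in duplication mouse 1 and at -0.13 from it in duplication mouse 2. The wild-type mice lay at -0.17, 0.39 and -0.23 for mice 1, 2 and 3, an SD of 0.34 between them. Without duplication mouse 1, whose array did not match its sex label, the 8 genes had a median log2 fold change of 0.97, and with all mice of 1.01. In bulk tissue, more cells of a type and more RNA per cell cannot be told apart.

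**Figure D1:**
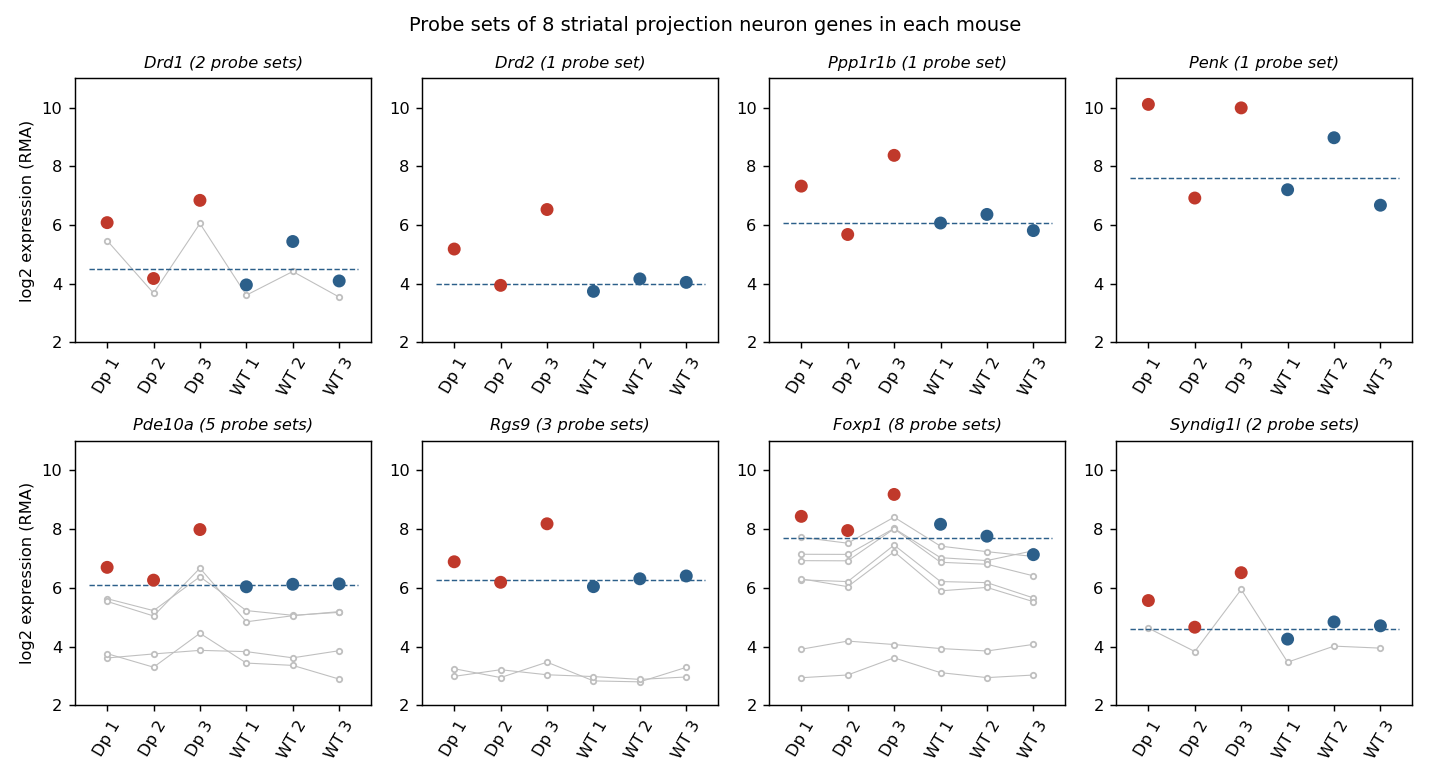
Log2 expression of every probe set of the 8 measured genes in each of the 6 mice (x axis; Dp, duplication, red; WT, wild type, blue). Filled points are the probe set with the highest mean, open grey points joined by lines the other probe sets, and dashed lines the wild-type mean of the filled points; Penk lies at 10.115 and 9.996 in duplication mice 1 and 3 and at 8.98 in wild-type mouse 2.

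Drd1 encodes the D1 dopamine receptor. Its log2 values were 6.09, 4.18 and 6.84 in duplication mice 1, 2 and 3, and 3.96, 5.44 and 4.10 in wild-type mice 1, 2 and 3. Duplication mice 1 and 3 lay above every wild-type mouse, while duplication mouse 2 lay among them and wild-type mouse 2 stood 1.41 above the mean of the other wild-type mice. The second probe set gave the same order at the top, with 5.47 and 6.06 in duplication mice 1 and 3 and 4.42 in wild-type mouse 2. The groups overlapped, at 5.70 ± 1.37 and 4.50 ± 0.82 (SD, n = 3 each), a log2 fold change of 1.20.

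Drd2, the D2 dopamine receptor, had log2 values of 5.19, 3.95 and 6.53 in duplication mice 1, 2 and 3, and 3.74, 4.17 and 4.05 in the wild-type mice. Duplication mouse 3 was 5.84-fold and duplication mouse 1 was 2.30-fold above the wild-type mean, and duplication mouse 2 lay among the wild-type mice. The wild-type values were close to the array medians of 3.74 to 3.79, so low signal limits these folds, and the same holds for Drd1 in wild-type mice 1 and 3. For Drd2, wild-type mouse 2 stood 0.27 above the other wild-type mice. The group means were 5.22 ± 1.29 and 3.99 ± 0.22 (SD, n = 3 each), with 1 probe set.

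Ppp1r1b encodes DARPP-32, which inhibits protein phosphatase 1 when phosphorylated by the cyclic AMP kinase. It had log2 values of 7.33, 5.68 and 8.38 in duplication mice 1, 2 and 3 and 6.07, 6.36 and 5.81 in wild-type mice. Duplication mouse 2 was the lowest of all 6, and the others of its group were the highest. The group means were 7.13 ± 1.36 and 6.08 ± 0.28 (SD, n = 3 each), a log2 fold change of 1.05.

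Pde10a, the phosphodiesterase that breaks down cyclic nucleotides in striatal projection neurons, had log2 values of 6.70, 6.26 and 7.99 in duplication and 6.04, 6.12 and 6.13 in wild-type mice. By the brightest probe set of each gene, it was the 1 gene of the 8 in which all 3 duplication mice lay above all 3 wild-type mice. Among all 23 probe sets this held for 1 of the 5 of Pde10a, 3 dimmer ones of the 8 of Foxp1 and 1 of the 3 of Rgs9. The 1 of Rgs9 had a mean of 3.01, under the array medians, and was highest in duplication mouse 2. No share over all probe sets is at hand, so these counts carry no weight. In 2.7% of all 18193 genes the groups were apart in this direction, so 1 of 8 is given without weight, since the genes were chosen on these values. Duplication mouse 2 exceeded the highest wild-type mouse by little, and the wild-type values were close, at 6.10 ± 0.05 (SD, n = 3). Of its 5 probe sets, 4 were highest in duplication mouse 3 by a wide margin, at 1.22 to 1.89 above their wild-type means. The exception, with a mean of 3.75, lay between 3.61 and 3.87 in all 6 mice and had a log2 fold change of -0.02.

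Rgs9, which speeds the switching off of G proteins below dopamine receptors, had log2 values of 6.89, 6.19 and 8.18 in duplication and 6.04, 6.31 and 6.40 in wild-type mice. Duplication mouse 3 was 3.81-fold and duplication mouse 1 was 1.56-fold above the wild-type mean, and duplication mouse 2 lay among the wild-type mice. The other probe sets of Rgs9 had means of 3.09 and 3.01, below the medians of the arrays, and log2 fold changes of 0.25 and 0.14.

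Penk, the precursor of the enkephalins, was the 1 gene of the 8 that was not highest in duplication mouse 3. Its log2 values were 10.115, 6.923 and 9.996 in duplication mice 1, 2 and 3 and 7.207, 8.979 and 6.679 in wild-type mice, from 1 probe set. Duplication mouse 1 was as high as duplication mouse 3, 5.63-fold and 5.19-fold above the wild-type mean. Wild-type mouse 2 stood 4.10-fold above the other wild-type mice. The groups overlapped, with a wild-type SD of 1.20 and a log2 fold change of 1.39.

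Foxp1, a forkhead transcription factor of striatal and of some hippocampal and cortical neurons, had log2 values of 8.44, 7.95 and 9.18 in duplication and 8.17, 7.76 and 7.13 in wild-type mice. Duplication mice 3 and 1 were the highest, and wild-type mouse 1 lay above duplication mouse 2. Of its 8 probe sets, 6 with a mean of 6.17 or more were highest in duplication mouse 3, at 0.95 to 1.5 above their wild-type means. The 2 dimmest, with means of 4.0 and 3.11, had log2 fold changes of 0.10 and 0.17. In duplication mouse 1 these 6 probe sets ranged from 0.07 to 0.75 above wild type.

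Syndig1l, a relative of a gene that promotes excitatory synapses, had log2 values of 5.57, 4.66 and 6.52 in duplication and 4.25, 4.84 and 4.71 in wild-type mice. Its second probe set gave 4.63, 3.83 and 5.94 and 3.47, 4.01 and 3.95. Both placed duplication mouse 3 first and duplication mouse 1 next, with duplication mouse 2 among the wild-type mice, with log2 fold changes of 0.98 and 0.99.

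Over the 8 genes, all 8 had a positive log2 fold change, from 0.84 (Rgs9) to 1.39 (Penk), where the median over all genes was -0.02. The median of 1.01 depended on single mice. It was 0.51 without duplication mouse 3 and 1.61 without duplication mouse 2, and the fold changes then ran from 0.29 (Rgs9) to 0.90 (Penk) and from 1.12 (Foxp1) to 2.43 (Penk). Without duplication mouse 1 they ran from 0.84 (Penk) to 1.25 (Drd2). In the limma fit of duplication against wild type over 45037 probe sets, 0% of all probe sets had an adjusted p under 0.05, and 0 of the 23 probe sets of these genes. At an unadjusted p under 0.05 there were 1272 probe sets in all.

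Counted mouse by mouse, duplication mouse 3 was at least 1 log2 unit, or 2-fold, above the wild-type mean for 8 of the 8 genes, against 1.22% of all genes. Duplication mouse 1 was so for 4 of the 8 (Drd1, Drd2, Ppp1r1b and Penk), against 0.363% of all genes, and duplication mouse 2 for 0 of the 8, against 0.0275%. In 7 of the 8 genes, all but Penk, duplication mouse 3 was the highest of the 6 mice and duplication mouse 1 the next, an order that 4.65% of all genes showed. Because the genes were selected on this pattern, these shares describe the background and support nothing.

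The size of the difference in duplication mouse 1 relative to that in duplication mouse 3 was not the same for all genes. As a share of log2 differences it was 31.8% for Pde10a, 33.0% for Rgs9, 47.1% for Drd2, 50.1% for Foxp1, 50.5% for Syndig1l, 54.3% for Ppp1r1b, 67.6% for Drd1 and 105% for Penk. Pde10a and Rgs9 were the most alike pair of the 8, with a root mean square difference of 0.12 between their log2 values over the 6 mice, each taken from its wild-type mean. Penk and Pde10a were the least alike, at 1.11.

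**Figure D2:**
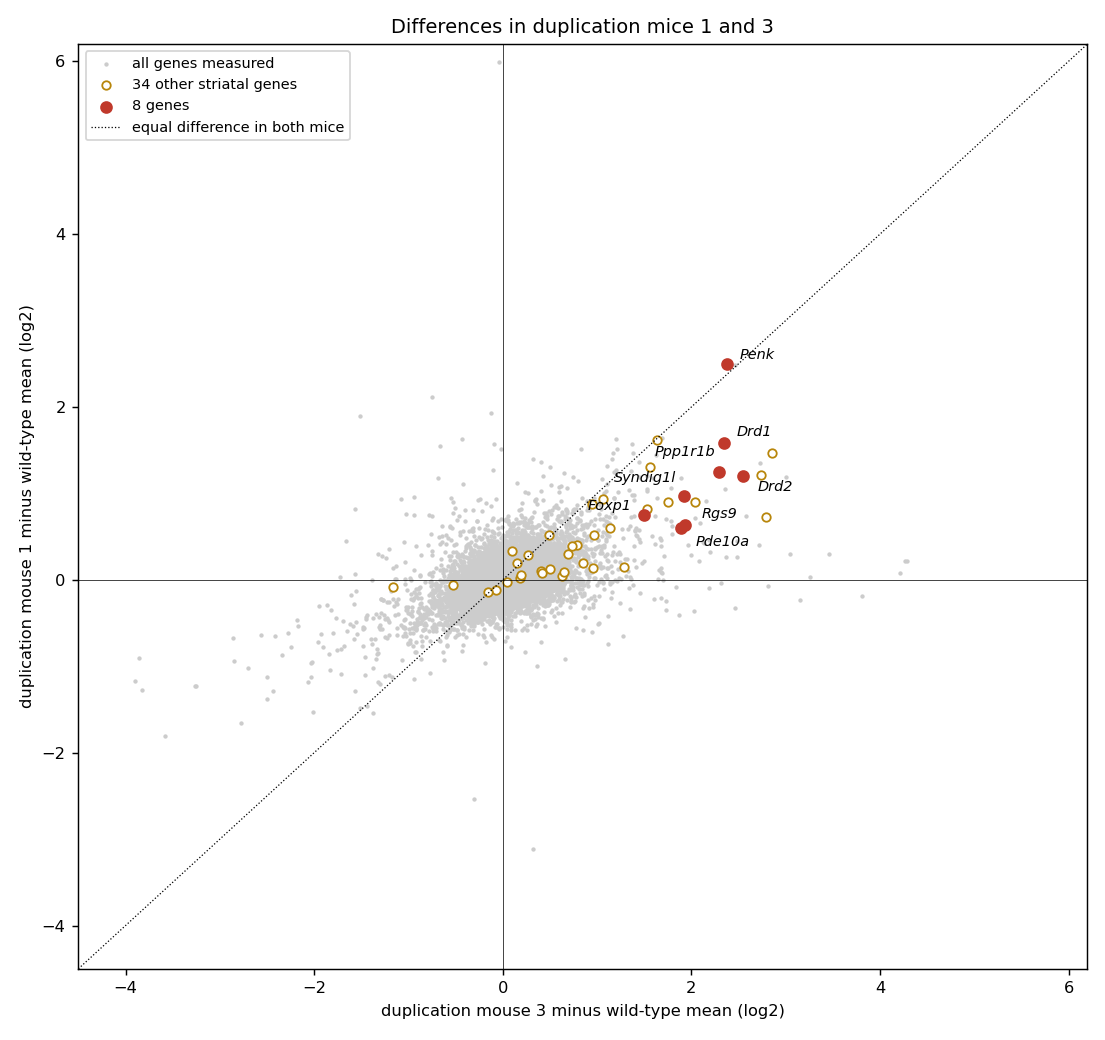
Log2 difference from the wild-type mean in duplication mouse 3 (x axis) and duplication mouse 1 (y axis) for all genes (grey), 34 other striatal genes (open) and the 8 genes (red, named). Penk lies near the dotted line of equal difference, with 2.49 in mouse 1 and 2.37 in mouse 3, and the other 7 genes lie below it.

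Penk and Drd1 were also the genes that were high in wild-type mouse 2. They stood 2.04 and 1.41 above the mean of the other wild-type mice there, and the other 6 genes 0.04 (Pde10a) to 0.42 (Ppp1r1b) above it. At 1 log2 unit or more this was 2 of the 8 genes, against 0.489% of all genes.

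The other genes of striatal projection neurons were taken from lists of 37 genes, 34 of them measured. Of the 34, 29 had a higher mean in duplication than in wild-type mice and 5 a lower one, with a median log2 fold change of 0.28, against -0.02 over all genes. None passed limma, 0 of 34 higher and 0 of 34 lower over all probe sets (smallest adjusted p = 0.994), and 1, Sh3rf2, had an unadjusted p under 0.05. The median was 0.52 without duplication mouse 2 and 0.18 without duplication mouse 3. Duplication mouse 3 was at least 1 log2 unit above the wild-type mean for 11 of the 34, duplication mouse 1 for 4 and duplication mouse 2 for 0. Over all genes the shares were 1.22%, 0.363% and 0.0275%. The lists were chosen with earlier results of these data known, so the counts are a description and support nothing.

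Among 8 further direct-pathway genes, Tac1, the precursor of substance P, had log2 values of 9.40, 7.25 and 9.42 in duplication and 7.19, 8.73 and 7.43 in wild-type mice. It was high in duplication mice 1 and 3 and in wild-type mouse 2, the same 3 mice as Penk and Drd1. Pdyn, the dynorphin precursor, had log2 values of 5.09, 4.90 and 4.86 in duplication and 4.73, 4.84 and 4.70 in wild-type mice. The groups did not overlap, as for 1 of the 8 genes of this list and 2.7% of all genes in this direction. The log2 fold change of Pdyn was 0.19, and duplication mouse 3 was the lowest of its group. Chrm4, a muscarinic receptor, lay between 3.03 and 3.24 in all 6 mice. Among the brighter genes of the list, Sfxn1 and Eya1 had log2 fold changes of 0.21 and -0.11.

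Of the indirect-pathway list, 1 of 3 genes was measured. Gpr6, an orphan receptor that raises cyclic AMP, had log2 values of 4.62, 3.07 and 6.00 in duplication and 3.06, 3.46 and 2.92 in wild-type mice. Duplication mice 3 and 1 were the highest, as for Drd2, with wild-type mouse 2 only 0.47 above the other wild-type mice.

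Of 17 measured genes of shared signalling and structure, 17 had a positive log2 fold change, with a median of 0.36, against -0.02 over all genes. Against 1.22% of all genes, 6 of the 17 were at least 1 log2 unit above the wild-type mean in duplication mouse 3. These included Scn4b, a sodium channel subunit, at 2.79, Rasd2, a striatal G protein, at 1.29, and Pde1b, a phosphodiesterase activated by calmodulin, at 1.14. Adcy5, the main striatal adenylyl cyclase, was 0.94 above wild type in duplication mouse 1 and 1.07 in duplication mouse 3. Gnb5 and Rgs7bp, the partners of the Rgs9 protein, were 0.18 and 0.63 above wild type in duplication mouse 3, where Rgs9 was 1.93 above it. Arpp21, a cyclic AMP regulated phosphoprotein, had log2 values of 9.23, 6.28 and 9.48 in duplication and 7.46, 8.71 and 7.59 in wild-type mice, again high in duplication mice 1 and 3 and in wild-type mouse 2.

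Of 8 transcription factors, 5 had a higher and 3 a lower mean in duplication mice. Foxp2, a relative of Foxp1, had log2 values of 5.31, 3.41 and 6.84 in duplication and 3.97, 5.12 and 3.22 in wild-type mice. Rarb, a retinoic acid receptor, was 0.90 and 1.76 above wild type in duplication mice 1 and 3. Bcl11b, a factor also made in dentate granule and cortical neurons, ran the other way, at -1.16 in duplication mouse 3 and 0.61 in duplication mouse 2. Foxp4 lay at -0.14, -0.08 and -0.16 from wild type in duplication mice 1, 2 and 3. The log2 fold change of Rxrg was 0.07. Wild-type mouse 2 was at least 1 log2 unit above the other wild-type mice for 5 of the 34 genes, against 0.489% of all genes. These were Foxp2, Tac1, Six3, Arpp21 and Meis2, by 1.12 to 1.53.

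**Figure D3:**
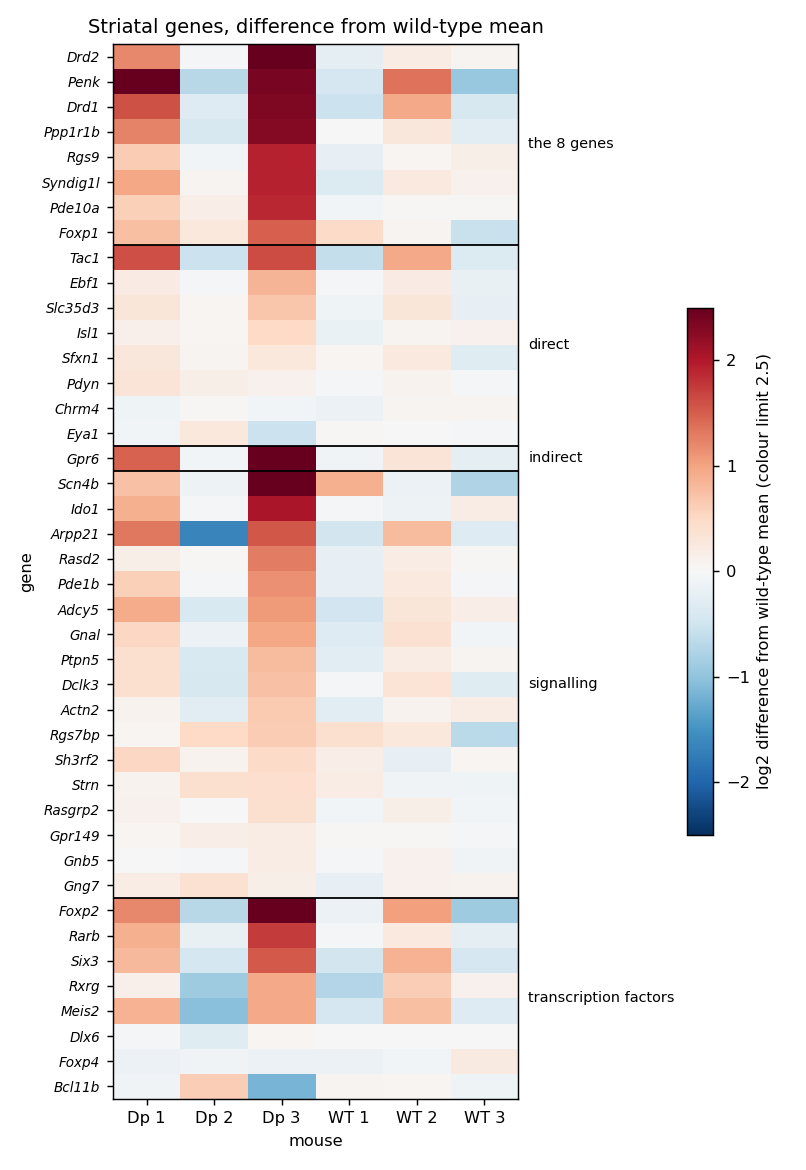
Difference of each mouse from the wild-type mean (log2, colour, limited at 2.5) for the 8 genes and 34 other striatal genes (rows, by list) in the 6 mice (columns). The columns of duplication mice 3 and 1 are mostly red, and wild-type mouse 2 is red for Penk, Drd1, Tac1, Foxp2, Six3, Arpp21 and Meis2.

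The 10 genes outside the 9 whose levels were most like the mean of the 8 over the 6 mice were ranked by the root mean square difference, from 0.20 to 0.37, where the median over 18185 genes was 1.03. They were Rarb, Rorb, Tpbg, Rasgef1b, Ido1, Vwc2, Pde7b, Gpr6, Zfhx3 and Olfm3, in that order. Rarb, Ido1 and Gpr6 were in the striatal lists, and Rorb, a nuclear receptor, was in the list of neocortex. Pde7b, a phosphodiesterase of cyclic AMP, had log2 values of 7.62, 7.14 and 8.49 in duplication and 6.64, 7.16 and 6.85 in wild-type mice. By Pearson correlation with the mean, 3 of the 10 were also among the 10 most alike, so the order depends on the measure.

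Lists for other cells and regions also differed in the same mice, and their part in the values of the 8 genes was not tested. Of 14 genes of thalamus and habenula, 9 were at least 1 log2 unit above wild type in duplication mouse 3 and 0 of 14 in duplication mouse 1. Over all genes the shares were 1.22% and 0.363%. The means of the list were 1.97 and 0.04 above wild type. The mean level of the thalamic list was 4.62 to 6.79 in duplication and 4.63 to 4.98 in wild-type mice. The 6 neocortical genes lay 1.28, 0.42 and -0.57 from wild type in duplication mice 3, 1 and 2, with mean levels of 5.73 to 7.58 in duplication and 6.16 to 6.39 in wild-type mice, and Fezf2 of that list was at -1.33 in duplication mouse 3. The 7 genes of choroid plexus were high in duplication mice 1 and 3 (3 and 6 of the 7 by at least 1 log2 unit) and highest in wild-type mouse 1, at 0.98, 1.24 and 2.0 above the wild-type mean, where the 8 genes were at -0.17. Their mean levels were 4.58 to 6.57 in duplication and 4.20 to 7.32 in wild-type mice.

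The means of hippocampal lists were below wild type in duplication mice 3 and 1, where the 8 genes were high. The mean over 6 CA1 pyramidal genes lay at -1.53 in duplication mouse 3, -0.69 in duplication mouse 1 and 0.29 in duplication mouse 2, and that over 8 dentate genes at -1.73, -0.79 and 0.81. By these means the order of the 3 duplication mice was the reverse of that for the 8 genes, but not in every gene. Pou3f1 of CA1 lay at -1.08 in duplication mouse 1 and -0.77 in duplication mouse 3. Stxbp6 of the dentate list lay at -0.57 and -0.56 there. Calb1 and Pdzd2 of the dentate list were 0.15 and 1.05 above wild type in duplication mouse 3. CA1 mean levels were 6.51 to 8.34 in duplication and 7.93 to 8.28 in wild-type mice, and dentate mean levels 5.42 to 7.96 and 6.99 to 7.33. For the 6 CA3 genes the means were -0.63, -0.33 and -0.20 in duplication mice 3, 1 and 2. Their mean levels were 6.75 to 7.18 in duplication and 7.24 to 7.61 in wild-type mice. Plagl1 of that list differed, at -0.16, 0.57 and -1.55 in duplication mice 3, 1 and 2.

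Markers of inhibitory neurons, 3 of them of interneuron classes, showed smaller mean differences. The mean over the 6 lay 0.33, 0.09 and -0.25 from wild type in duplication mice 3, 1 and 2, at mean levels of 8.27 to 8.85 in duplication and 8.41 to 8.74 in wild-type mice. Gad1, which makes GABA, had log2 values of 9.72, 9.65 and 10.02 in duplication and 9.77, 9.96 and 9.99 in wild-type mice. The other general markers varied more between mice. Slc32a1 lay at 0.13, -0.48 and 0.50 from wild type in duplication mice 1, 2 and 3, and Gad2 at 0.15, -0.16 and 0.13. In wild-type mouse 2 they stood 0.92 and 0.79 above the other wild-type mice. Of the interneuron markers, Sst lay at 0.32 and -0.20, Pvalb at -0.61 and 0.94 and Vip at 0.70 and 0.47 from wild type in duplication mice 1 and 3. The markers of cholinergic neurons, the large interneurons of the striatum, lay between 2.72 and 3.71 in all 6 mice for Chat, Slc18a3, Slc5a7 and Lhx8, under the medians of all arrays. Of the 7 genes of midbrain dopamine neurons, the brightest, Aldh1a1, which makes retinoic acid in other cells too, lay between 8.27 and 9.17, at -0.19, 0.55 and 0.61 from wild type in duplication mice 1, 2 and 3. The next, Th, the rate-limiting enzyme of dopamine synthesis, lay between 3.82 and 4.26, and the dopamine transporter Slc6a3 between 3.11 and 3.47. Their list means ran from 2.99 to 3.07 and 2.88 to 3.22 for cholinergic, and from 3.83 to 4.0 and 3.93 to 3.99 for dopamine neurons, in duplication and wild-type mice.

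Means over markers of the amygdala were -0.42, 0.12 and -0.42 in duplication mice 3, 1 and 2 and 0.46 in wild-type mouse 2, the highest of the 6 mice at a mean level of 6.83. In duplication mouse 3, 3 of the 5 were at least 1 log2 unit below wild type. No share of all genes that far below wild type is at hand, so this count carries no weight. Means over 4 markers of the septum were 0.15, -0.04 and 0.20 and 0.20 in the same mice. The mean in duplication mouse 3 was over markers that lay on opposite sides of wild type, Zic1 at 3.26 and Trpc4 and Nts at -1.47 and -1.14. Among glial and vascular lists, the mean was 0.48 above wild type in duplication mouse 3 for oligodendrocytes and 0.45 in duplication mouse 1 for microglia, and lay between -0.10 and 0.30 otherwise in the duplication mice. In duplication mouse 3, Gfap of the astrocyte list lay at -1.19 from wild type, and the others of that list from 0.003 (Gja1) to 0.45 (Aldh1l1) above it.

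**Figure D4:**
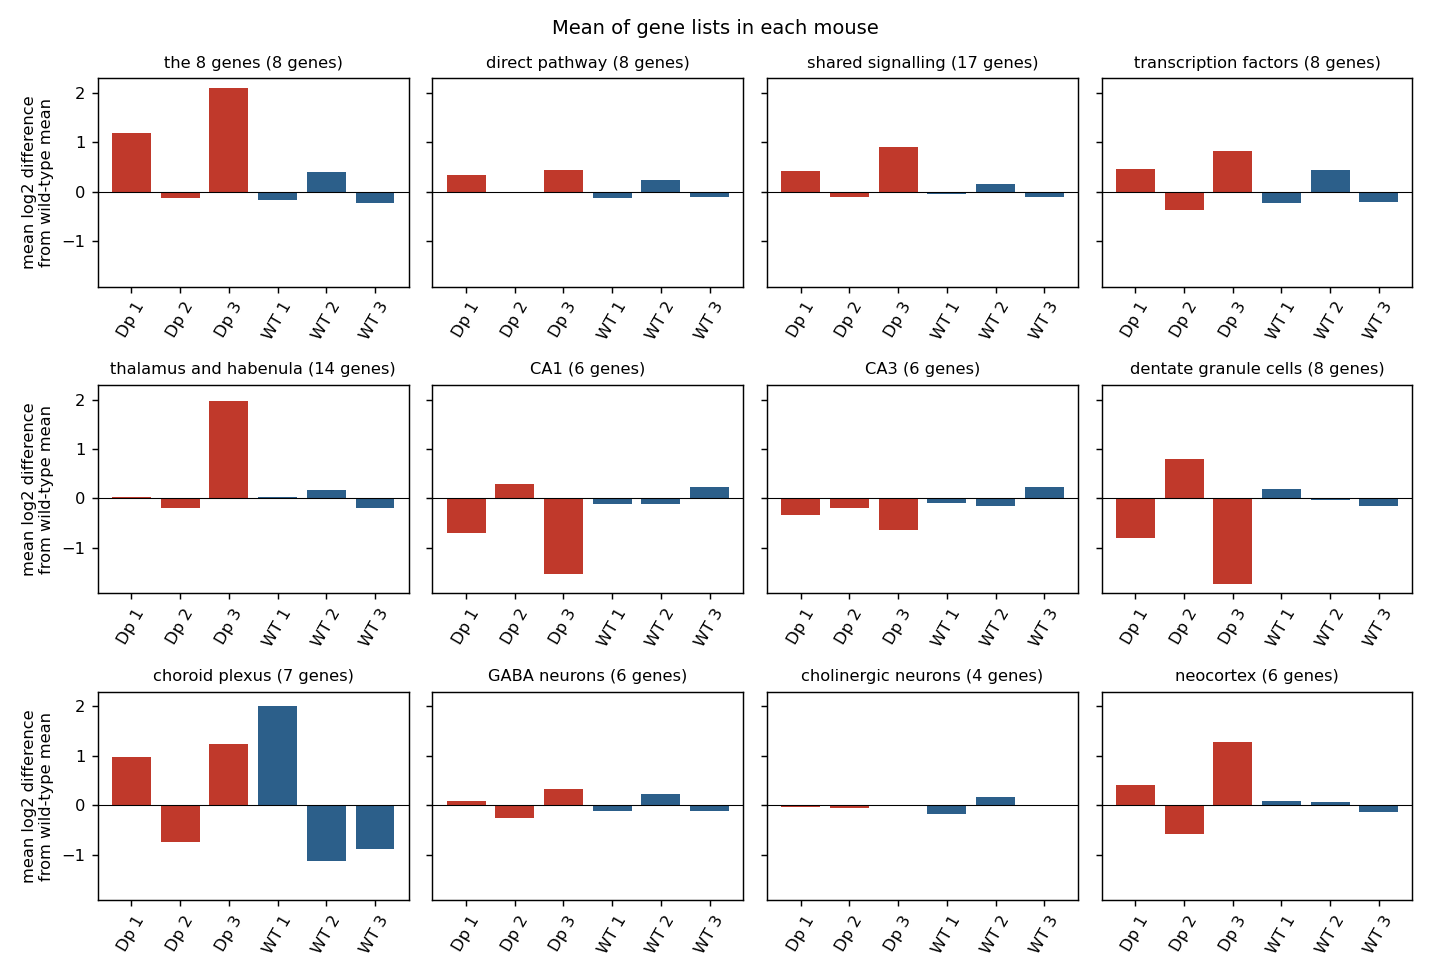
Mean log2 difference from the wild-type mean over the genes of 12 lists (bars, number of genes in each title) in the 6 mice (x axis; Dp, duplication, red; WT, wild type, blue). The 8 genes are high in duplication mice 3 and 1 (2.10 and 1.18), the thalamic list is high in mouse 3 alone of the duplication mice (1.97), and the dentate list is low in mice 3 and 1 (-1.73 and -0.79).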

How the data were processed

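The authors deposited log2 values per probe set, made with RMA per the submitters' processing notes, which corrects background, normalizes by quantiles and summarises probes. Its version is not stated in what was used. The deposited log2 values were used without further scaling or pseudocount, and 64 control probe sets were left out, leaving 45037. Symbols came from the platform annotation, updated through Entrez identifiers to the gene table of GRCm38.p6, in which 34741 of 34945 probe sets with 1 symbol were found, while 932 had several symbols and 9160 none. The genes and lists were chosen with earlier results of these data known.

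The 2 genotypes were compared in limma 3.58.1 (R 4.3.3, lmFit and eBayes, two-sided, no covariate, 7.11 degrees of freedom), with Benjamini-Hochberg adjustment over all probe sets and a threshold of 0.05. The code was tested on simulated data. Named were all 9 genes with every probe set, genes of the striatal lists, the 3 brightest of each other list and the 10 genes of smallest root mean square difference. Markers named beyond the 3 brightest (Dsp, Tdo2, Pdzd2, Slc5a7, Slc6a3, Gad2, Slc32a1, Vip and Aldh1l1) were picked after their values were seen. Nothing says how mice were related within a group, so the spread between them may be partly technical. Alternatives were 3 other scalings, other probe set choices, filters on dim probe sets, other priors and weights, and each mouse left out. The median of wild type as baseline was added after the data were seen.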

Additional observations from a re-analysis of the deposited data

How the results depend on the processing

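The mean over the 8 genes in duplication mice 1 and 3, and the 8 positive fold changes, kept their direction under 3 other scalings, 2 other choices of probe set, the median of wild type as baseline and each mouse left out. Leaving out 1 mouse at a time gave the 8 genes a median log2 fold change between 0.51 and 1.61 and the 34 other striatal genes one between 0.18 and 0.52, with the highest values without duplication mouse 2 and the lowest without duplication mouse 3. The mean of the 8 genes in duplication mouse 2 ran from -0.24 to 0.07 when 1 mouse was left out, and was 0.0684 without wild-type mouse 2. Of the other striatal genes whose mean reached 6 on the log2 scale, 14 of 16 were higher. No share over all genes of that level is at hand, and the lists were chosen with earlier results known, so this count supports nothing. Averaged over all probe sets of a gene, Pde10a, Rgs9 and Foxp1 had log2 fold changes of 0.56, 0.41 and 0.51 in place of 0.89, 0.84 and 0.84 since the average takes in their dim probe sets, and duplication mouse 3 was at least 1 log2 unit above wild type for 7 of the 8 genes. With an intensity trend and robust prior, and with array weights, limma called 1 probe set each, of Xaf1, which is none of the 8 genes (adjusted p = 0.0338 and 0.0330). By Pearson correlation 3 of the 10 most alike genes were shared. No paired analysis was possible because the labels of the groups share no replicate numbers. Low signal limits several genes, for which at least 2 wild-type values lie near or under the array medians. These include Drd1, Drd2, Gpr6, Foxp2, Rarb, Ido1, Six3 and the second probe set of Syndig1l.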
